A study of Mus musculus with 9 samples.

Results

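The genes described here encode the proteasome of the mouse brain and the proteins that activate, inhibit or assemble it. They were chosen by name alone, as every gene whose symbol consists of Psm, a letter from a to g, a number and, in a few cases, further letters. This rule took 50 of the 22192 genes in the table. Of these, 49 are proteasome genes: 7 of the alpha ring, 10 of the beta ring that are expressed broadly or in immune cells, 2 tissue-specific core subunits, 17 of the regulatory particle, 5 activators or inhibitors, 1 near-copy of an activator, and 7 assembly chaperones. The remaining match, Psmc3ip, encodes a partner of the meiotic recombinases and is no proteasome subunit, so it is described by itself.

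The proteasome degrades proteins tagged with ubiquitin. Its core is a barrel of alpha and beta subunits with proteolytic sites in the beta rings, and a regulatory particle with a ring of ATPases at its base recognises, unfolds and feeds in the substrate. In cells exposed to interferon the catalytic beta subunits Psmb6, Psmb7 and Psmb5 are replaced in new particles by Psmb9, Psmb10 and Psmb8, which gives the immunoproteasome. That form favours peptides that fit MHC class I molecules, and in the brain it is known mostly from microglia and from inflamed tissue.

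RNA was sequenced from the brains of male KM mice, an outbred stock. The 9 libraries fall into 3 groups of 3: young mice of 5 months given oral saline, aged mice of 18 months given oral saline, and aged mice of 18 months given by gavage 200 mg/kg of GRP-E1F2, a polysaccharide from ginseng root, all every 2 days for 4 weeks. The last group is called treated below. The labels call the 3 libraries of a group parallel samples and leave unsaid whether each is another animal. The p-values below hence reflect nothing but the spread among these samples, and that spread could be technical.

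Expression is given as TPM (a share of the library corrected for transcript length), so the sequencing depth is unknown and no counting error can be given. The tissue is labelled brain although the extraction text speaks of retina. Summed over a list of 8 photoreceptor markers, the libraries held 2.65 to 7.58 TPM, with Pdc at 0 throughout, against 4516 to 5733 TPM for 8 neuronal markers. The groups also differed in regional markers: 12 genes of cerebellar neurons summed to 6264 to 8648 TPM in the young, 4121 to 4401 TPM in the aged and 512 to 606 TPM in the treated libraries. All 12 were called lower in the treated than in the aged group, against 13.4% of all genes. Pcp2 had 627 to 947 TPM in the aged and 3.16 to 9.09 TPM in the treated libraries, and Cbln3 had 274 to 277 and 0.111 to 0.343 TPM. Glial markers differed too. Summed over 8 genes of myelinating oligodendrocytes, the young libraries held 9052 to 9635 TPM. The aged held 6122 to 7410 TPM and the treated 5533 to 5708 TPM. For 8 astrocyte genes the sums were 608 to 699, 473 to 506 and 373 to 415 TPM. With age, 6 of the 8 oligodendrocyte and 5 of the 8 astrocyte genes were called lower, against 11.2% of all genes. In bulk tissue, fewer cells of a type, less RNA per cell and a different share of a region in the sample cannot be told apart. Every comparison below is between groups that differ in these markers, so age or treatment cannot be told apart from regional or cell type content. The libraries of a group were not evenly spaced. Young library 3 had a value intermediate to libraries 1 and 2 at 62.6% of the 13301 genes tested and at 26 of the 47 name-matched genes tested. The same was true of aged library 2 (66.4% and 30 of 47) and of treated library 3 (67.8% and 33 of 47). Where the other pair of the group differed by at least 1.3-fold, these shares of all genes were 89.2%, 91.5% and 91.9%, against 20.1% to 30.9% for the remaining libraries. Whether these 3 libraries are independent samples cannot be told from the labels. Results are therefore also given without these 3 libraries, with 2 libraries per group. At a gene where a library lies between the other 2, leaving it out widens the spread of its group by construction. The loss of a call with 2 libraries per group was thus partly set in advance and does not show that a change is absent.

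Of the 50 genes, 47 had a mean of at least 1 TPM and were tested. The other 3 were Psma8, a testis counterpart of Psma7, at a mean of 0.221 TPM, Psmb11, the thymus-specific subunit, at 0.310 TPM, and Psme2b at 0.405 TPM. Psme2b is a near-copy of Psme2, with which it could share reads. At this trace level Psmb11 had 0.0548 to 0.113 TPM in the young, 0.274 to 0.319 TPM in the aged and 0.509 to 0.600 TPM in the treated libraries, and the groups did not overlap. The share of all TPM taken by the 50 genes together was 0.392% to 0.397% for young mice, 0.371% to 0.379% for aged mice and 0.373% to 0.386% for treated mice.

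Subunits that are built into the particle in equal numbers did not have equal RNA levels. In the alpha ring, which gates the entrance of the core, mean levels over the 9 libraries ran from 85.5 TPM for Psma1 to 144 TPM for Psma7. Among the beta subunits without a proteolytic site they ran from 110.1 TPM for Psmb2 to 218 TPM for Psmb4, the highest of all 50 genes. The constitutive catalytic subunits lay close together, from 163 TPM for Psmb6 to 176 TPM for Psmb7.

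The regulatory particle was more uneven. The 6 ATPases of its base ranged from 41.5 TPM for Psmc6 to 159 TPM for Psmc5, which is 3.83-fold. The 11 non-ATPase subunits, which include ubiquitin receptors and the scaffold of the lid, ranged from 30.7 TPM for Psmd11 to 113 TPM for Psmd4, a ubiquitin receptor. Activators ranged from 5.55 TPM for Psme4, the nuclear activator PA200, to 68.7 TPM for Psme3, which caps the core in the nucleus. The span of Psme4 overlaps that of Erlec1, at 22.0 TPM, by 18357 bases, and reads there cannot be told apart without strand. Assembly chaperones ranged from 14.6 TPM for Psmg1 to 82.2 TPM for Psmg3, 2 chaperones that act while the alpha ring forms.

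The immunoproteasome genes were far lower, with the exception of 1. Psmb9 and Psmb8 had means of 6.304 and 6.413 TPM, while Psmb10 had 48.2 TPM. Psmb10 thus stood 7.65-fold above Psmb9 on the TPM scale.

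**Figure D1:**
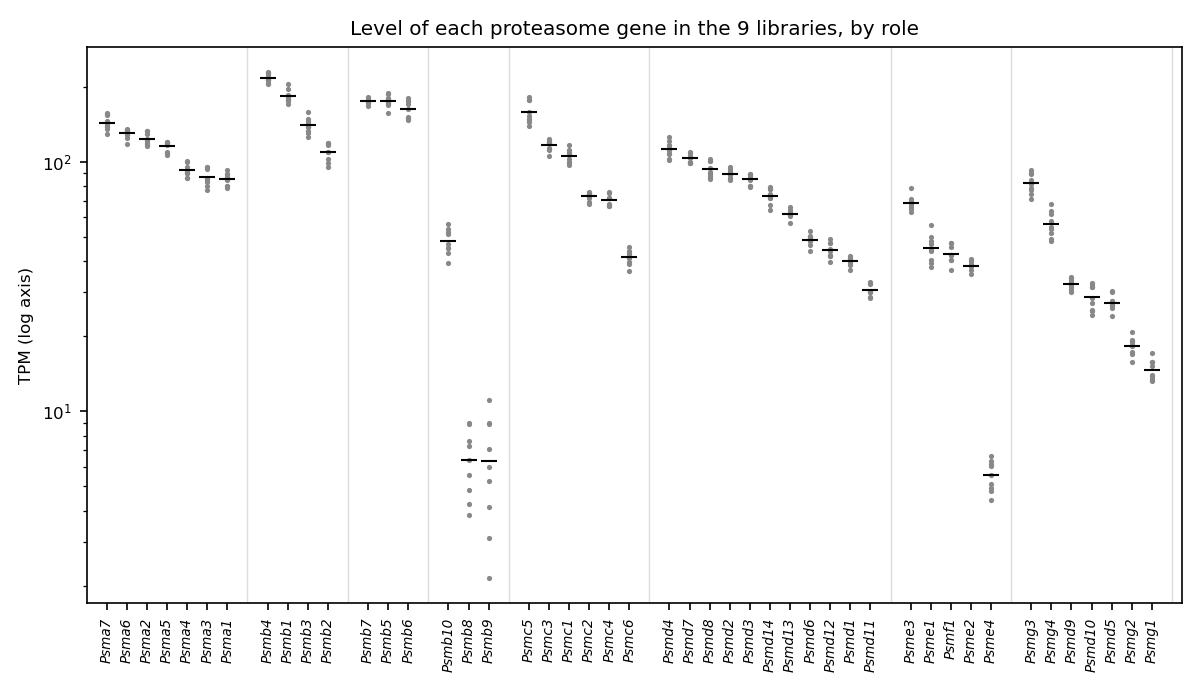
Expression of 46 proteasome genes in TPM on a log axis, ordered by role and, within a role, by mean. Each point is 1 of the 9 libraries and the bar is their mean; Psmb8, Psmb9 and Psme4 lie near or below 10 TPM, while most core subunits lie near or above 100 TPM.

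Most of these genes varied little. The range of log2(TPM + 1) over the 9 libraries had a median of 0.28 over the 47 genes tested and of 0.52 over all genes tested, and 43 of the 47 lay below the latter. All genes tested reach down to a mean of 1 TPM, and no comparison with genes of like level was made. The narrowest ranges were those of Psmb7 (0.12), the trypsin-like constitutive subunit, Psmc2 (0.15), an ATPase, and Psmb4 (0.15). The widest were those of Psmc3ip (2.67), Psmb9 (1.94) and Psmb8 (1.04). Psmb8 and Psmb9 are also among the lowest of the 47 genes in TPM.

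**Figure D2:**
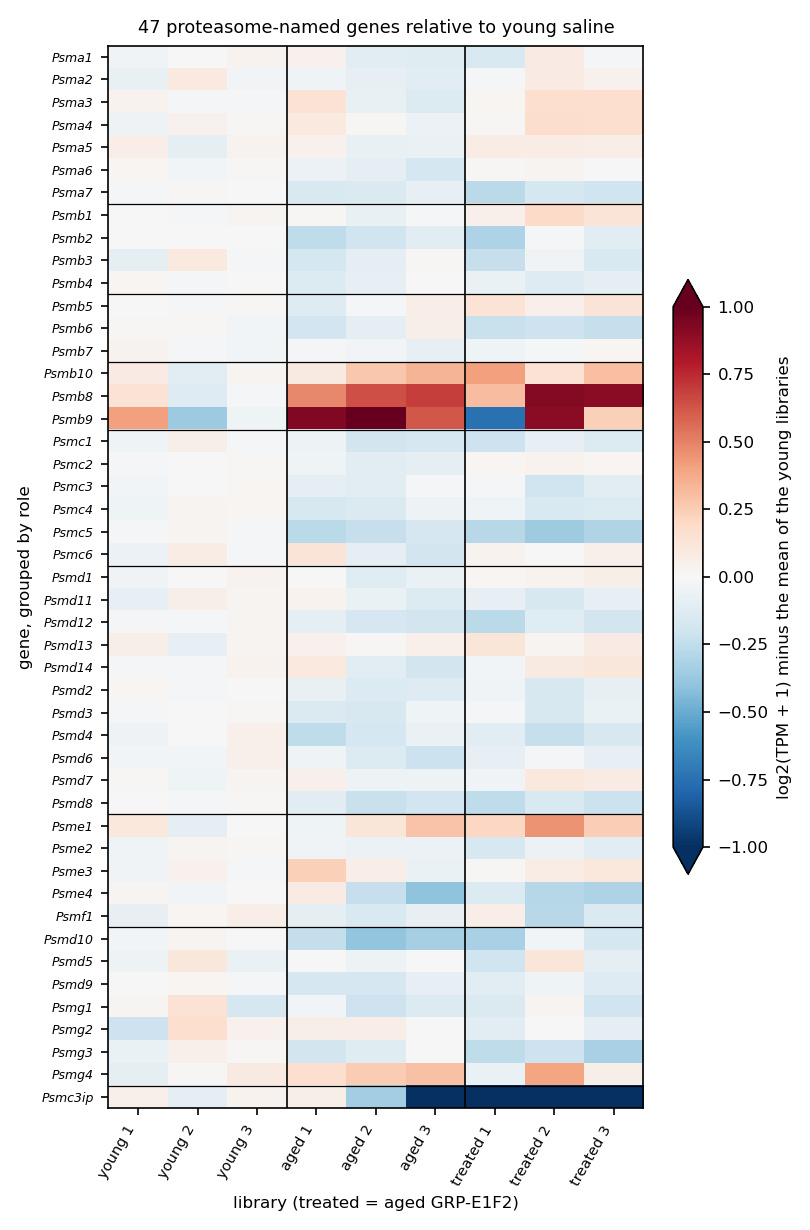
Difference in log2(TPM + 1) between each library and the mean of the young libraries, for 46 proteasome genes grouped by role and Psmc3ip in the last row (colours end at −1 and 1). The rows of Psmb8, Psmb9 and Psmc3ip carry the strong colours, and most others stay pale in all 9 libraries.

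The positions of the catalytic genes give the context for their values (build GRCm38.p6, also called mm10, RefSeq gene spans). Psmb8 lies at chr17:34198195-34201454 and Psmb9 at chr17:34182030-34187330, both within the MHC class II region, whereas Psmb10 lies at chr8:105935728-105938392. The constitutive counterparts lie apart, Psmb6 at chr11:70525324-70527858, Psmb7 at chr2:38588046-38643952 and Psmb5 at chr14:54614120-54617995. Psmb9 is transcribed away from Tap1, which encodes a subunit of the peptide transporter that loads MHC class I molecules, and 225 bases separate the starts of the pair. That whole interval is shown because it holds the shared promoter, read 5′ to 3′ on the minus strand in the direction of Psmb9, from chr17:34187331-34187555. Below it stand the 100 bases before the start of Psmb8 (plus strand, chr17:34198095-34198194) and of its constitutive counterpart Psmb5 (minus strand, chr14:54617996-54618095), so that the pair for 1 catalytic site can be compared. Sequences are from RefSeq. Capitals mark a CCAAT box, read on the other strand, in the Psmb9 interval and a match to TGACNNNGC, the core of the antioxidant response element, in Psmb5.
Psmb9: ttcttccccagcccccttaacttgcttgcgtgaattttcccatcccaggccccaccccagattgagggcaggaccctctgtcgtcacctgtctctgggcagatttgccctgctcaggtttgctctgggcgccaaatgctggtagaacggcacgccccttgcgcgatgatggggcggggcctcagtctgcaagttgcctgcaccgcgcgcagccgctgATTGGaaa
Psmb8: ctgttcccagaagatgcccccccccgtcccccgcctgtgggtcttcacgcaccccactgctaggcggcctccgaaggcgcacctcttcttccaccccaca
Psmb5: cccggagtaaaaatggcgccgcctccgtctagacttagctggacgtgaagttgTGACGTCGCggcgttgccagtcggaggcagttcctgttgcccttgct

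Promoter windows of 300 bases, from 250 before to 50 after the start, were at hand for 42 of the 50 genes and searched on both strands. These 42 genes had 45 windows and are counted per gene, whereas the shares of all promoters are per promoter, so the units differ. TGACNNNGC, the core bound by the Nrf family of factors, was found in 6 of 42 genes (14.3%) against 12.4% of 32851 promoters of all genes. The 6 were Psmb5, Psmb6, Psmc6, Psmd12, Psmd9 and Psme4. The core of the interferon-stimulated response element, searched as GAAA followed by any 2 bases and GAAA again, was found in 5 of 42 (11.9%) against 3.44% of all promoters, in Psmb3, Psmd4, Psmd9, Psme1 and Psmg4. The windows of Psmb8, Psmb9 and Psmb10 held no match to it. CCAAT was found in 15 of 42 (35.7%) against 37.4%. Such matches describe the letters of these windows and are no evidence of binding.

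The constitutive catalytic genes differed by small steps between the groups. Psmb5, the chymotrypsin-like subunit, had 172, 171 and 174 TPM in the young, 157, 169.6 and 181 TPM in the aged and 189.8, 179 and 188 TPM in the treated libraries. Psmb7 had 183, 177 and 175 TPM in the young, 177, 174 and 168 TPM in the aged and 173, 177 and 181 TPM in the treated libraries. The values of both genes overlapped between young and aged. The treated libraries of Psmb5 lay above all young ones, and those of Psmb7 overlapped them. Neither gene passed the test in any of the 3 comparisons, but Psmb5 was called higher between treated and young under median-of-ratios scaling.

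Psmb6, the caspase-like subunit, had 175, 175 and 170.2 TPM in the young, 152, 163 and 180.3 TPM in the aged and 148, 150.4 and 148 TPM in the treated libraries. The treated libraries were the lowest and did not overlap the others, while aged library 3 was the highest of all 9.

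The immunoproteasome genes moved further. Psmb8 had 4.85, 3.85 and 4.26 TPM in the young, 6.41, 7.27 and 7.58 TPM in the aged and 5.58, 8.99 and 8.92 TPM in the treated libraries. All 6 libraries of 18-month-old mice were above all 3 young ones, and the aged and treated libraries overlapped. Psmb9 had 6.01, 3.09 and 4.12 TPM in the young, 9.02, 11.1 and 7.10 TPM in the aged and 2.15, 8.89 and 5.23 TPM in the treated libraries. The aged libraries stood above the young ones, whereas the treated libraries spanned both groups, and treated library 1 was the lowest of all 9. Psmb10 had 45.0, 39.3 and 43.1 TPM in the young, 45.2, 51.5 and 53.9 TPM in the aged and 56.6, 46.9 and 52.5 TPM in the treated libraries. All 6 libraries from 18 months lay above the young ones, aged library 1 by less than 1 TPM.

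**Figure D3:**
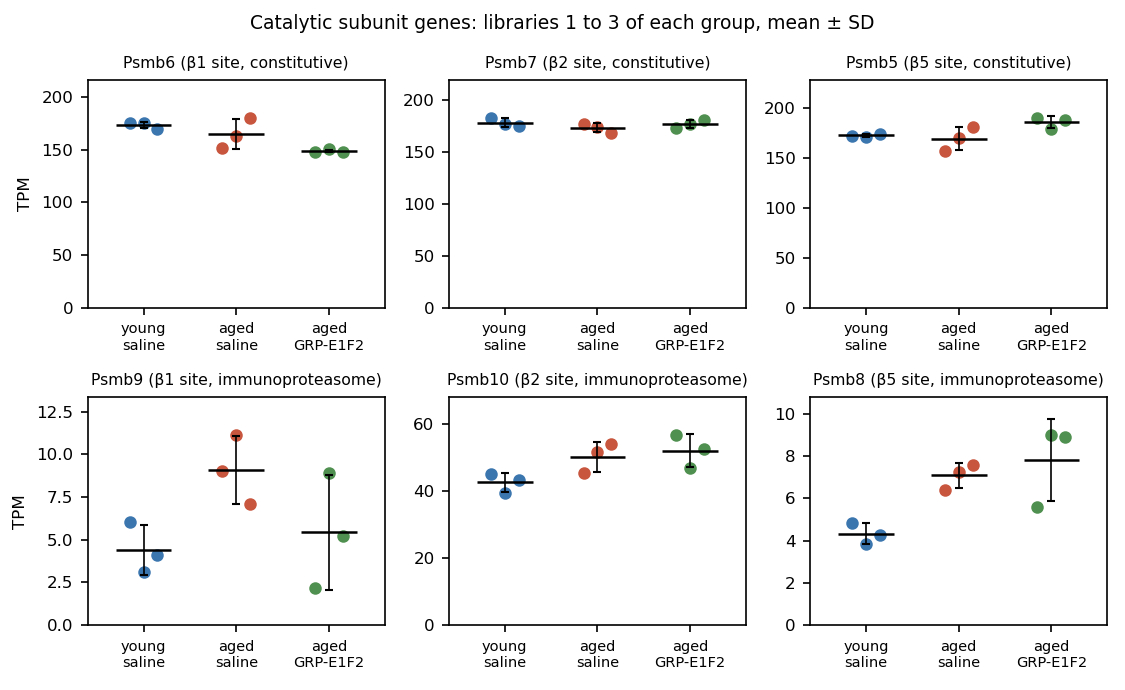
TPM of the constitutive (upper row) and immunoproteasome (lower row) subunit genes of each catalytic site, in libraries 1 to 3 of each group from left to right, with the mean and SD (n = 3). Psmb8 and Psmb10 are higher in all 6 libraries of 18-month-old mice than in the young ones, Psmb9 is spread widely in the treated group, and Psmb6 is lowest there.

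Read as a share of the RNA for its catalytic site, the immunoproteasome subunit was a minority at each. At the site of Psmb5 and Psmb8, Psmb8 made up 2.74%, 2.21% and 2.39% in the young, 3.92%, 4.11% and 4.03% in the aged and 2.86%, 4.79% and 4.53% in the treated libraries. The aged libraries lay close together and above the young ones, and treated library 1 was close to young library 1. At the site of Psmb7 and Psmb10, Psmb10 made up 19.2% ± 0.938 in the young, 22.4% ± 1.97 in the aged and 22.7% ± 1.83 in the treated group (SD, n = 3). At the site of Psmb6 and Psmb9, Psmb9 made up 2.47% ± 0.798, 5.26% ± 1.33 and 3.47% ± 2.07. Averaged over the 3 sites, the immunoproteasome gene stood below its counterpart by a log2 difference of −4.04 ± 0.197 in the young, −3.41 ± 0.110 in the aged and −3.62 ± 0.347 in the treated group. The mean of the aged group was thus 0.63 above the young and the treated mean 0.22 below the aged. Of the 3 immunoproteasome genes, only Psmb9 was lower in the treated than in the aged group (−0.78, not called). Psmb8 (0.10) and Psmb10 (0.05) had small positive changes, also not called. Treated library 1, at −4.01, was as low as the young libraries (−3.84, −4.24 and −4.04).

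For the effect of age, the aged saline group was compared with the young saline group. Psmb8 rose, while Psmc5, an ATPase of the regulatory particle, and Psmd10, the assembly chaperone gankyrin, fell. These 3 were all that passed an adjusted p of 0.05 among the 46 proteasome genes tested, 6.52% against 16.7% of all 13301 genes. Of all genes tested, 5.48% were called higher and 11.2% lower. The groups did not overlap at 20 of the 46 genes, against 41.5% of all genes. An unadjusted p under 0.05 was found at 13 of the 46, against 4567 of all 13301 genes.

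Psmb8 rose 1.52-fold on the scale of log2(TPM + 1), a change of 0.61 (SE 0.159, 95% interval 0.25 to 0.97, adjusted p = 0.0342). The call was lost without young library 2 (adjusted p = 0.116), young library 3 (0.109), any 1 of the aged libraries (0.0549, 0.115 and 0.0678) and treated library 3 (0.0501). Over all genes, calls with age fell from 2217 to 635, 371 and 379 without young library 2, young library 3 and aged library 2. They numbered 1330 and 2568 without aged libraries 1 and 3, and 1172 without treated library 3. With 2 libraries per group the change was 0.58 (adjusted p = 0.440). The other immunoproteasome genes had positive changes that did not pass the test, of 0.91 for Psmb9 (SE 0.373, adjusted p = 0.118) and 0.23 for Psmb10 (SE 0.0913, adjusted p = 0.107). The call of Psmb9 changed with the treated libraries in the fit: it passed without treated library 1 and in a fit of the young and aged libraries alone, with a lowest adjusted p of 0.0347.

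Psmc5 had 177, 182 and 177 TPM in the young and 148, 153 and 159 TPM in the aged libraries, so every aged library was below every young one. It fell by 0.22 on the log2 scale (SE 0.0491, 95% interval −0.33 to −0.11, adjusted p = 0.0213). Psmd10 had 31.5, 32.9 and 32.3 TPM in the young and 27.2, 24.3 and 25.4 TPM in the aged libraries, again with no overlap. It fell by 0.32 (SE 0.0792, adjusted p = 0.0286). Psmd10 overlaps the gene Atg4a, at 1.853 TPM, by 2867 bases, and reads there cannot be told apart without strand. Neither call was kept with 2 libraries per group (adjusted p of 0.496 and 0.503), without young library 2 or 3, or without aged library 2, and that of Psmd10 was also lost without treated library 3. Psmc5 missed the threshold under median-of-ratios scaling (adjusted p = 0.0508) and Psmd10 under quantile normalisation (0.0589).

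By role, the alpha ring had 6 of 7 negative changes and none called, from −0.13 to 0.02, and the ATPases had 6 of 6 negative changes with Psmc5 called. The 11 non-ATPase subunits had 10 negative changes and none called; Psmd8, a lid subunit, came nearest with −0.17 (adjusted p = 0.0513). The 3 constitutive catalytic genes changed by −0.03 (Psmb5), −0.04 (Psmb7) and −0.07 (Psmb6), none called. Over the 46 genes 37 changes were negative and 9 positive, while 40.0% of all genes tested had a positive change. The median was −0.07, against a median of −0.05 over all genes tested. The number of negative changes fell to 30 under median-of-ratios scaling and to 34 under quantile normalisation. For the 43 genes other than the immunoproteasome subunits, changes lay from −0.32 to 0.24, and their 95% intervals within −0.50 to 0.49.

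Markers of microglia were higher in the aged than in the young group, as Psmb8 was, and higher again in the treated group, where the immunoproteasome genes were not called against the aged one. Summed over 11 microglial genes, the libraries held 104 to 127 TPM in the young, 154 to 158 TPM in the aged and 174 to 219.6 TPM in the treated group, and 7 of the 11 rose with age, against 5.48% of all genes. Between treated and aged 5 of the 11 rose, against 7.47%, and between treated and young all 11 rose, against 17.2%. Treated library 1 held 174 TPM of these markers, above every aged library. Its values of Psmb8 and Psmb9 were below those of every aged library, and its value of Psmb10 (56.6 TPM) was above them. Neutrophil markers, 8 genes, summed to 5.12 to 8.24 TPM in the young, 36.6 to 100.9 TPM in the aged and 1.38 to 4.12 TPM in the treated libraries. Markers of T cells summed to 1.52 to 4.38 TPM in the young, 2.41 to 3.795 TPM in the aged and 2.46 to 3.18 TPM in the treated libraries. Their part in the values of Psmb8, Psmb9 and Psmb10 was not tested.

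For the effect of treatment, the treated group was compared with the aged saline group. No proteasome gene passed the limma test: 0 of 46, against 20.8% of all genes (7.47% higher and 13.4% lower). An unadjusted p under 0.05 was found at 6 of the 46, against 4726 of all 13301 genes. The groups did not overlap at 11 of the 46, against 36.3% of all genes. By the name rule 1 of 47 was called, the non-subunit Psmc3ip. Changes were positive at 26 and negative at 20 of the 46 genes, while 47.3% of all genes had a positive change. The median was 0.03 against −0.02 over all genes.

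The smallest p among the 46 was that of Psmb1, a noncatalytic beta subunit. It had 181, 170.4 and 177 TPM in the aged and 186, 205 and 196 TPM in the treated libraries, without overlap, a change of 0.15 (adjusted p = 0.0690). Psmb5 changed by 0.13 (adjusted p = 0.137) and Psmb6 by −0.14 (0.139). Under median-of-ratios scaling Psmb1 and Psmc2 passed the threshold, both higher in the treated group.

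Of the immunoproteasome genes, Psmb9 had the widest interval, with a change of −0.78 (95% interval −1.62 to 0.06, adjusted p = 0.171). Its change ran from −1.17 to −0.34 over the alternatives tried, and it passed the threshold without treated library 2 (adjusted p = 0.0367). Psmb8 changed by 0.10 (−0.26 to 0.46, adjusted p = 0.683) and Psmb10 by 0.05 (−0.16 to 0.26, adjusted p = 0.733). The 43 other genes changed by −0.16 to 0.18, and their 95% intervals lay within −0.36 to 0.40.

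The treated group was also compared with the young saline group. This comparison shares the treated libraries with the one before and the young libraries with the age comparison, so the values below are not independent of either. Psmb8, Psmb10 and Psme1, a subunit of the interferon-inducible activator PA28, rose. Psma7, Psmb6, Psmc5, Psmd12, Psmd8 and Psmg3 fell. These 9 of 46 genes are 19.6%, against 46.6% of all genes tested, of which 17.2% were called higher and 29.4% lower. The groups did not overlap at 21 of the 46, against 61.4% of all genes. An unadjusted p under 0.05 was found at 12 of the 46, against 7173 of all 13301 genes.

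Psmb8 rose by 0.71 on the log2 scale, or 1.64-fold (SE 0.159, 95% interval 0.35 to 1.07, adjusted p = 0.00586). Psmb10 rose by 0.28 (SE 0.0913, adjusted p = 0.0304). Psmb9 changed by 0.13 (SE 0.373, adjusted p = 0.791), and its sign turned without young library 2 (−0.05) or treated library 2 (−0.25).

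Psme1 had 43.8, 37.9 and 40.6 TPM in the young, 39.4, 44.5 and 49.98 TPM in the aged and 47.1, 56.1 and 48.4 TPM in the treated libraries. All treated libraries were above all young ones, and the aged libraries overlapped both. It rose by 0.30 (SE 0.101, adjusted p = 0.0361). Its partner in the same ring, Psme2, did not move with it, at 39.9 ± 1.01 TPM in the young, 38.5 ± 0.323 in the aged and 36.9 ± 1.33 in the treated group (SD, n = 3).

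Psmc5 had 147, 139 and 145 TPM in the treated libraries, all below the aged ones, and fell by 0.31 against the young group (SE 0.0491, 95% interval −0.42 to −0.20, adjusted p = 0.000963). Psma7, an alpha subunit, had 154, 157 and 156 TPM in the young, 140.0, 141 and 147 TPM in the aged and 129, 138 and 135 TPM in the treated libraries. The 3 groups of Psma7 did not overlap, and it fell by 0.21 (SE 0.0475, adjusted p = 0.00549). Psmg3 had 84.9, 92.6 and 90.1 TPM in the young, 78.4, 82.0 and 89.3 TPM in the aged and 74.5, 77.0 and 71.0 TPM in the treated libraries. The treated libraries were below all others, and it fell by 0.26 (SE 0.0645, adjusted p = 0.00906).

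The lid subunits Psmd8 and Psmd12 fell by 0.21 (adjusted p = 0.00964) and 0.19 (0.0204), and Psmb6 by 0.22 (0.0196). Psmd8 had 101.4, 101.2 and 102.9 TPM in the young and 85.4, 91.4 and 87.6 TPM in the treated libraries, with 94.7, 87.2 and 89.2 TPM in the aged ones. Psmd12 had 47.3, 47.5 and 48.9 TPM in the young, 44.7, 42.4 and 42.1 TPM in the aged and 39.6, 44.0 and 42.0 TPM in the treated libraries. For both genes every library from 18 months was below every young one.

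Of these calls, those of Psma7, Psmb6, Psmd12, Psmd8 and Psmg3 were lost under median-of-ratios scaling, with adjusted p of 0.0568, 0.135, 0.131, 0.0654 and 0.0540. Under that scaling 6 of 46 genes were called higher and 1 lower, and 21 of 46 changes were negative in place of 27. The calls of Psmb8 and Psmc5 were kept under every alternative but that with 2 libraries per group, where no proteasome gene was called (adjusted p of 0.128 and 0.0858). With 2 libraries per group 12.9% of all genes were called in this comparison, 1.86% between treated and aged, and 0.0226% between aged and young.

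Other calls were lost on leaving out single libraries. Over all genes, calls in this comparison fell from 6204 to 4780, 4759 and 4737 without young library 2, young library 3 and treated library 3. On leaving out each of the other libraries they numbered 5584 to 6635. That of Psmb10 was lost without young library 2 or 3 or treated library 1 or 3, and that of Psmb6 without young library 1 or 2 or treated library 3. That of Psmd12 was lost without young library 2 or 3 or treated library 1 or 3. That of Psme1 was lost without young library 2 or 3, aged library 2, or treated library 2 or 3.

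**Figure D4:**
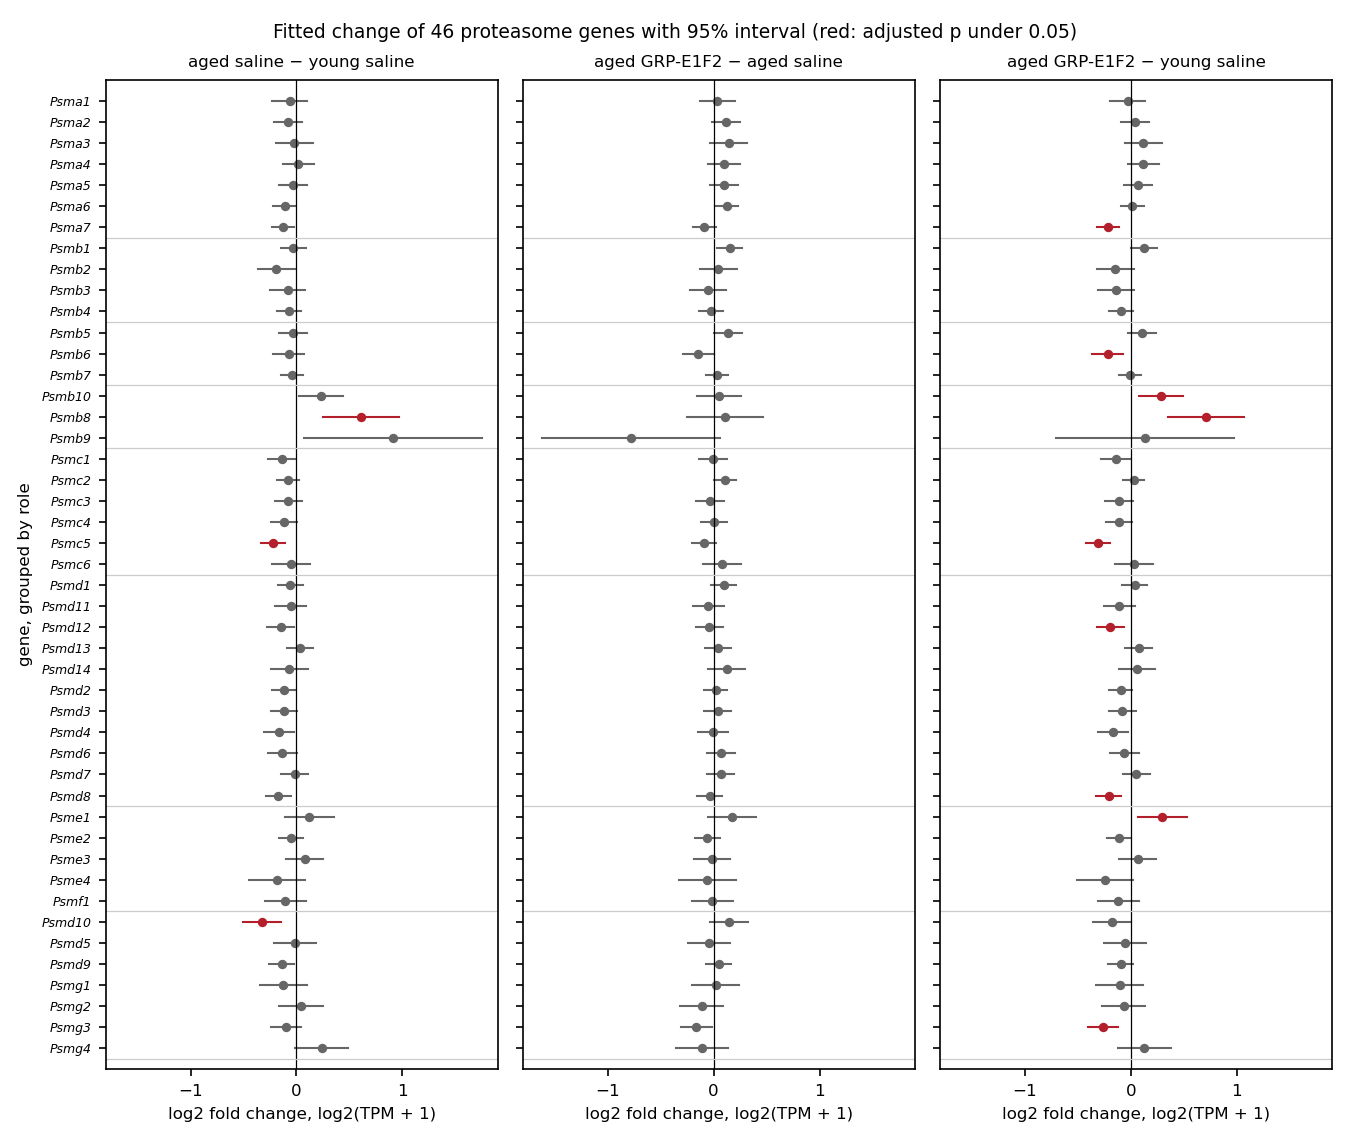
Fitted change in log2(TPM + 1) with its 95% interval for 46 proteasome genes, grouped by role, in each of the 3 comparisons; red marks an adjusted p under 0.05. The aged saline group differs from the young at Psmb8, Psmc5 and Psmd10, no gene is red between treated and aged, and 9 are red between treated and young.

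Psmc3ip had 29.6, 26.6 and 29.2 TPM in the young, 29.7, 22.2 and 10.3 TPM in the aged and 3.83, 11.3 and 7.07 TPM in the treated libraries. The aged libraries ran from the young level down to that of the treated group and overlapped both. It fell by 1.36 between aged and treated (SE 0.389, adjusted p = 0.0377) and by 1.91 between young and treated (SE 0.389, adjusted p = 0.00359). The first of these calls was lost in 11 of 18 alternatives, among them the omission of any young library, of aged library 1 or 2, and of treated library 1 or 3 (highest adjusted p 0.383). Psmc3ip lies at chr11:101092141-101095435 and overlaps the gene Mlx, at 28.0 TPM, by 67 bases.

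Within the aged group the proteasome genes differed by base composition. The difference between aged libraries 3 and 1 ranked with the GC content of the longest coding transcript, with a Spearman rho of 0.72 across the 47 genes and 0.55 across 12715 genes with a GC value. Genes are not independent replicates, all points share the same pair of libraries, and no p is given. Psme1 (0.33), Psmb10 (0.25) and Psmb6 (0.25) were higher in aged library 3, and Psme4 (−0.49), Psmc6 (−0.31) and Psmb9 (−0.31) lower. The alpha subunits averaged 112, 106 and 105 TPM in aged libraries 1 to 3, and Psmb1 to Psmb7 averaged 158, 162 and 170.3 TPM. The corresponding rho was −0.21 between young libraries 2 and 1 and −0.16 between treated libraries 2 and 1 across the same 47 genes. For the group changes across the 47 genes, rho with GC content was 0.11 between aged and young, −0.31 between treated and aged and −0.02 between treated and young, against −0.08, −0.09 and −0.10 across the 12715 genes. The part of base composition in the changes of single genes was not tested.

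**Figure D5:**
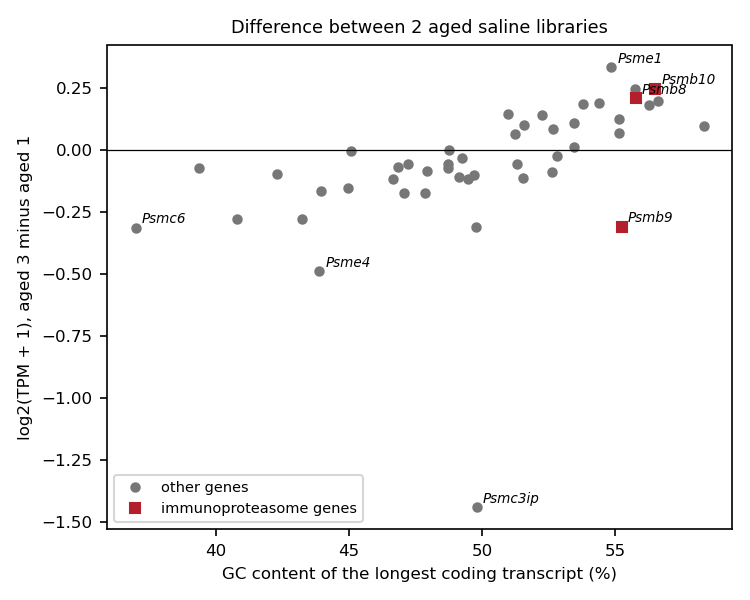
Difference in log2(TPM + 1) between aged libraries 3 and 1 against GC content of the longest coding transcript in percent, for 47 name-matched genes, with the immunoproteasome genes as red squares. GC-rich genes such as Psme1, Psmb10 and Psmb8 lie above 0 and GC-poor genes such as Psmc6 and Psme4 below; Psmb9 and Psmc3ip lie below 0 off this trend.

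Genes that act with the proteasome were examined as lists. Of 19 other proteasome factors, which include shuttle receptors, deubiquitinases and the transcription factor Nfe2l1, 1 rose and 1 fell with age, 10.5% against 16.7% of all genes. Ubqln4, a shuttle factor, rose by 0.29 (adjusted p = 0.0358). The list's median change was −0.07 against −0.05 over all genes. Between treated and aged only Txnl1, a thioredoxin bound to the regulatory particle, was called, higher by 0.17 (adjusted p = 0.0494), which is 5.26% of the list against 20.8% of all genes. Between treated and young 2 rose and 4 fell, 31.6% against 46.6% of all genes, among them Usp14, a proteasome-bound deubiquitinase (0.39, adjusted p = 0.00410). The highest of the list were Sem1, a lid subunit (712 TPM), Pomp, the chaperone of core assembly (400.3 TPM), and Vcp, the unfoldase p97 (127 TPM), none of them called. Nfe2l1, which drives proteasome genes when the proteasome is inhibited, had 80.3 to 88.1 TPM in the young, 79.2 to 85.3 TPM in the aged and 84.8 to 95.1 TPM in the treated libraries, and was not called.

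Of 6 genes for ubiquitin and its activating enzymes, Uba1 fell with age (−0.19, adjusted p = 0.0326). In each comparison 1 of 6 was called, or 16.7%. The shares of all genes were 16.7% with age, 20.8% between treated and aged and 46.6% between treated and young. Uba6, a second activating enzyme, was higher in the treated than in the aged group (0.35, adjusted p = 0.0237) and than in the young (0.31, adjusted p = 0.0180). Uba6 stood at 2.00 to 2.54 TPM in the aged and 2.92 to 3.14 TPM in the treated libraries, without overlap. The ubiquitin gene Ubb, at 2367 TPM the highest of the list, was not called in any comparison.

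Genes that handle the peptides made by the immunoproteasome were mixed. None of 9 tested passed the limma test with age, against 16.7% of all genes. An unadjusted p under 0.05 was found at 3 of the 9 with age, against 4567 of all 13301 genes. In each of the other comparisons 1 of 9 was called, or 11.1%. The shares of all genes were 20.8% between treated and aged and 46.6% between treated and young. B2m, the light chain of MHC class I, had 282, 307 and 291 TPM in the young, 411, 437 and 393 TPM in the aged and 306, 524 and 419 TPM in the treated libraries. Treated library 1 lay at the young level, and the other libraries from 18 months lay above it. The change of B2m with age was 0.49 (adjusted p = 0.0623), and it rose by 0.47 between young and treated (adjusted p = 0.0370). Tap1, across the shared promoter from Psmb9, had 1.14, 0.936 and 1.11 TPM in the young, 1.39, 1.45 and 2.05 TPM in the aged and 1.10, 1.89 and 1.42 TPM in the treated libraries. As for Psmb9, the aged libraries were above the young ones and treated library 1 was the lowest of its group, and the change of Tap1 with age was 0.34 (adjusted p = 0.120). Calr, a chaperone of MHC class I loading, was higher in the treated than in the aged group (0.18, adjusted p = 0.0221).

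Interferon-response genes, which in other settings move with Psmb8 and Psmb9, went both ways. Of 13 tested, Gbp3, a guanylate-binding protein, rose with age by 0.72 (adjusted p = 0.0189) and Ifit1 by 0.51 (0.0427), and none fell. These 2 are 15.4% of the list, against 16.7% of all genes (5.48% higher). Changes with age were positive at 10 and negative at 3 of the 13, while 40.0% of all genes had a positive change. The aged and young libraries did not overlap at 8 of the 13, against 41.5% of all genes. Between treated and aged, 4 of 13 fell and none rose, 30.8% against 20.8% of all genes (13.4% lower). Of these, Stat2, a subunit of the interferon-activated transcription complex, fell by 0.79 (adjusted p = 0.00138), Isg15, a ubiquitin-like modifier, by 0.97 (0.0301), and Ifit1 by 0.49 (0.0420). Isg15 had 12.3, 12.02 and 7.69 TPM in the aged and 3.20, 7.89 and 4.36 TPM in the treated libraries, which overlapped by a small margin. Between treated and young, Gbp3, Ifit3 and Irf1 rose, and Irf9 and Stat2 fell, 38.5% of the list against 46.6% of all genes. The list's median change was 0.30 with age, −0.16 between treated and aged, and −0.04 between treated and young.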

How the data were processed

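The authors deposited one table of TPM values per gene for the 9 libraries. The submitters' processing notes name the build mm10 and the tools HISAT2, GATK, Picard and SAMtools 0.1.18. Neither the tool that computed TPM nor its handling of strand is stated in the labels, so reads of overlapping genes, which 14 of the 50 genes have, could be shared. Per the labels' protocols, libraries were made with the NEBNext Ultra II kit. TPM keeps no depth, so precision is known only from the 3 libraries per group. No column was left unmapped.

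TPM was transformed to log2(TPM + 1), which understates changes of low genes. The 13301 genes whose mean reached 1 TPM entered one linear model over all 9 libraries (R 4.3.3, package limma 3.58.1, with trended eBayes). Tests were two-sided, with Benjamini-Hochberg adjustment over all genes tested; an adjusted p under 0.05 is a call. The fit was tested on simulated data with independent noise in each library. That simulation lacks the intermediate libraries described above, so it cannot show how the p-values behave with them. Python 3.11.15 (pandas 2.3.3, matplotlib 3.10.9) was used for summaries and figures. Gene spans and promoters came from RefSeq tables of GRCm38.p6, and GC content from GENCODE transcripts.

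The members and lists were chosen with earlier results of these data known. The text names the 6 catalytic genes, up to 12 called genes per comparison, the highest and lowest gene of each role, untested genes, and the 3 widest and narrowest ranges. Of the other lists it names up to 4 called genes with the smallest p per comparison and the 3 highest. Psmb1, Psme2, Nfe2l1, Tap1 and the genes of the motif and GC descriptions fall outside the rule and were named after their values were seen. The alternatives were a pseudocount of 0.1 or 5 TPM, no filter or a mean of 5 TPM, median-of-ratios or quantile scaling, a replicate block, a fit restricted to the compared groups, 2 libraries per group, and omission of each library. A few genes that this rule takes are not reported here.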

Additional observations from a re-analysis of the deposited data

How the results depend on the processing

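Of the 360 values that 20 named results took under the alternatives, 291 kept direction and call, 62 lost the call, 3 gained it and 4 turned sign. The number of name-matched genes called with age was 3. It was 5 with no filter on low values, 0 with 2 libraries per group and 0 to 6 on leaving out each library. Between treated and aged it was 1, against 2 with no filter, 3 under median-of-ratios scaling, 0 in a fit of these groups alone, 0 with 2 libraries per group and 0 to 3 on leaving out each library. Between treated and young it was 10, against 0 with 2 libraries per group and 6 to 13 on leaving out each library. These fits with fewer libraries also have fewer degrees of freedom. Leaving out an intermediate library also widens the spread within its group by construction. Other causes were not tested. The mean log2 difference between immunoproteasome and constitutive genes shifted with age by 0.63, by 0.44 with a pseudocount of 5 TPM and by 0.53 to 0.73 on leaving out each library. It shifted by −0.22 (−0.36 to −0.02) between treated and aged and by 0.42 (0.27 to 0.61) between treated and young. The sign turned for Psmb10 between treated and aged without aged library 1 (−0.022) or treated library 1 (−0.012), within a range of −0.022 to 0.12 on leaving out each library, and for Psmb9 between treated and young without young library 2 (−0.05) or treated library 2 (−0.25), within a range of −0.25 to 0.57.

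With the replicate number as a block, 3 genes were called with age, 0 between treated and aged and 9 between treated and young. The calls not made under the block were those of Psmc3ip between treated and aged (adjusted p = 0.0506) and Psme1 between treated and young (0.0564). The numbers did not pair the samples: correlations of deviations were −0.05 to 0.13 for same-numbered and −0.13 to 0.12 for other libraries. Median-of-ratios scaling moved the split of all calls from 729 higher and 1488 lower to 925 and 1025 with age, from 994 and 1777 to 1301 and 1612 between treated and aged, and from 2294 and 3910 to 3015 and 3074 between treated and young. Quantile normalisation gave 966 and 1102, 1466 and 1470, and 3115 and 2978.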
